A study of Rattus norvegicus with 16 samples.

Results

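Endocannabinoids are lipid messengers that neurons make on demand from their membranes and release backwards across the synapse, where they act on the CB1 receptor of the presynaptic terminal and reduce transmitter release. In the hippocampus the main messenger, 2-arachidonoylglycerol, is made by diacylglycerol lipase alpha (Dagla) and broken down mainly by monoacylglycerol lipase (Mgll). Anandamide and its relatives, the N-acylethanolamines, are formed by the phospholipase Napepld among other enzymes and broken down by fatty acid amide hydrolase (Faah). CB1 itself is encoded by Cnr1. These 5 genes were taken as a set, and the members were defined as the transcript probes whose RefSeq accession belongs to these symbols, with 1 probe for each gene. Of the 5, 3 were measured (Mgll, Napepld and Cnr1), out of 26565 features of the array in all. Dagla and Faah were not analysed here, because no probe carried an accession that the gene table used here pairs with them.

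The series profiled RNA of the right hippocampus of 16 male Wistar rats on 1-colour Agilent arrays, with 1 array for each rat. The rats were operated on at 5 weeks of age, and a solution of 1 µl at pH 2.2 was later infused into the right amygdala. In the Fe day 5, Fe day 15 and Fe day 30 groups (n = 4 each) it held 100 mM FeCl3, an iron salt that induces recurrent limbic seizures and models posttraumatic epilepsy, and the hippocampus was taken 5, 15 or 30 days later. In the control group (n = 4) it was saline, and the tissue was taken after 15 days. All groups shared the implanted cannula and the acidic infusion. There were no controls taken at day 5 or day 30, so in those comparisons both iron and the interval after infusion differed.

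Levels are given as the log2 of the processed signal minus the 75th percentile of that array, which ran from 553 to 924 in signal units. Between 74.2% and 81.6% of the transcript spots were well above background, no spot was saturated, and all 8 neuron markers with a probe were above background on every array. A level of one probe cannot be set against that of another. The markers of choroid plexus and meninges differed most between arrays. The choroid plexus score, which is the median log2 difference from the control mean over 8 measured markers, was 1.89 and 3.6 in Fe day 5 replicates 2 and 3 and 7.13 in Fe day 30 replicate 3, against −0.40 to 0.52 in the controls. The meninges score over 10 markers was 4.54, 2.68 and 3.27 on the same 3 arrays, against −0.08 to 0.05 in the controls. Of the 11 choroid plexus markers with a probe, 8 to 11 were above background in Fe day 5, 8 to 9 in Fe day 15, 7 to 11 in Fe day 30 and 6 to 8 in the controls, and Kl, Slc4a5 and Prlr were not well above background on any control array. These are called the 3 marker-high arrays, and the main values below are also given without them. Neighbouring tissue, fewer cells of a type and less RNA in each cell cannot be told apart in RNA of whole hippocampus.

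In Mgll and Napepld all 4 arrays of a Fe group lay below all 4 control arrays on one of the days. The promoter sequences of these genes are shown, and that of Cnr1 is not, since the promoter reference held no entry for it. The sequences come from the RefSeq promoter table on GRCr8, run 5′ to 3′ on the gene's strand over 300 bases, and are used with that build alone. The scanner file headers name an older build, rn4. Mgll lies on the plus strand at chr4:122749186-122749485 and Napepld on the plus strand at chr4:14253010-14253309. Capitals mark the GC box GGGCGG on either strand (CCGCCC on the strand shown) and the E-box CACGTG.
Mgll: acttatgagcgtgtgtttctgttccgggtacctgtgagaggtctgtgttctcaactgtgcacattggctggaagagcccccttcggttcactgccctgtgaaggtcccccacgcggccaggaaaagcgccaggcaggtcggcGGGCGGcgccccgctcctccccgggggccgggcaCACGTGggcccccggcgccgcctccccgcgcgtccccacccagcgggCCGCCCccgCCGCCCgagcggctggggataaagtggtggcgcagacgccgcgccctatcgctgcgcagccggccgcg
Napepld: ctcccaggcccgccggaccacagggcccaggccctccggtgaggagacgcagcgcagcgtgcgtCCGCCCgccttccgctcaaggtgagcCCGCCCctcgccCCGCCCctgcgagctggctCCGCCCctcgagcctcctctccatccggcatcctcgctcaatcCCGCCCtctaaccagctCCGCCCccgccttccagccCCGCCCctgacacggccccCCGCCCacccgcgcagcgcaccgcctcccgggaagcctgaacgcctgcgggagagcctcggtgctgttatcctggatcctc
Both promoters are rich in G and C, at 72.3% for Mgll and 74.7% for Napepld. The Mgll window held 3 GC boxes and 1 E-box, and the Napepld window held 8 GC boxes and no E-box. Among 33469 promoters of the table, 33.1% held at least 1 GC box and 6.42% an E-box. The cAMP response element TGACGTCA, held by 1.83% of promoters, and the TATA box letters TATAAA, held by 14.2%, were in neither window. These are matches of letters on both strands and describe the sequence alone.

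Mgll, the enzyme that ends the action of 2-arachidonoylglycerol, had a lower mean on all 3 Fe days than in the controls, at between 64.3% and 70.5% of the control signal, and none of the differences passed the adjusted test. Its level was 1.81, 1.45, 2.42 and 1.94 in Fe day 5, 2.11, 2.03, 2.25 and 1.40 in Fe day 15, 1.96, 1.96, 1.46 and 1.87 in Fe day 30, and 2.51, 2.56, 2.59 and 2.14 in the controls. All 4 Fe day 30 arrays lay below all 4 control arrays. In Fe day 5 and Fe day 15 the groups overlapped, because replicate 3 of each lay above control replicate 4, the lowest control array. Group means were 1.90 ± 0.40 in Fe day 5, 1.95 ± 0.37 in Fe day 15, 1.81 ± 0.24 in Fe day 30 and 2.45 ± 0.21 in the controls (SD, n = 4 each).

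The log2 difference of Mgll from control was −0.55 (SE 0.21, 95% interval −0.998 to −0.10) on day 5, with a limma p of 0.021 and 0.47 after Benjamini-Hochberg adjustment over all 26565 features. On day 15 it was −0.50 (95% interval −0.96 to −0.05), and limma gave an adjusted p of 0.39 (unadjusted 0.031). On day 30 it was −0.64 (95% interval −1.09 to −0.18), where the limma p was 0.0091, or 0.55 once adjusted. Expressed as a share of the control signal, the day 30 level was 64.3% (95% interval 47.0% to 88.0%).

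Across the whole array, at an adjusted p under 0.05, 0% of features were called on day 5, 0% on day 15 and 0.00753% on day 30, and no member was among them. At an unadjusted p under 0.05, 6.28%, 6.33% and 4.66% of all features were lower in Fe on days 5, 15 and 30. On those days 4.29%, 7.87% and 1.65% of features had a smaller p than Mgll. Groups that did not overlap, with Fe below control as for Mgll on day 30, were seen in 3.63% of features on that day. The F-test over the 4 groups gave Mgll a limma p of 0.037 and an adjusted p of 0.58, where 8.34% of features passed the unadjusted and 0% the adjusted threshold.

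**Figure D1:**
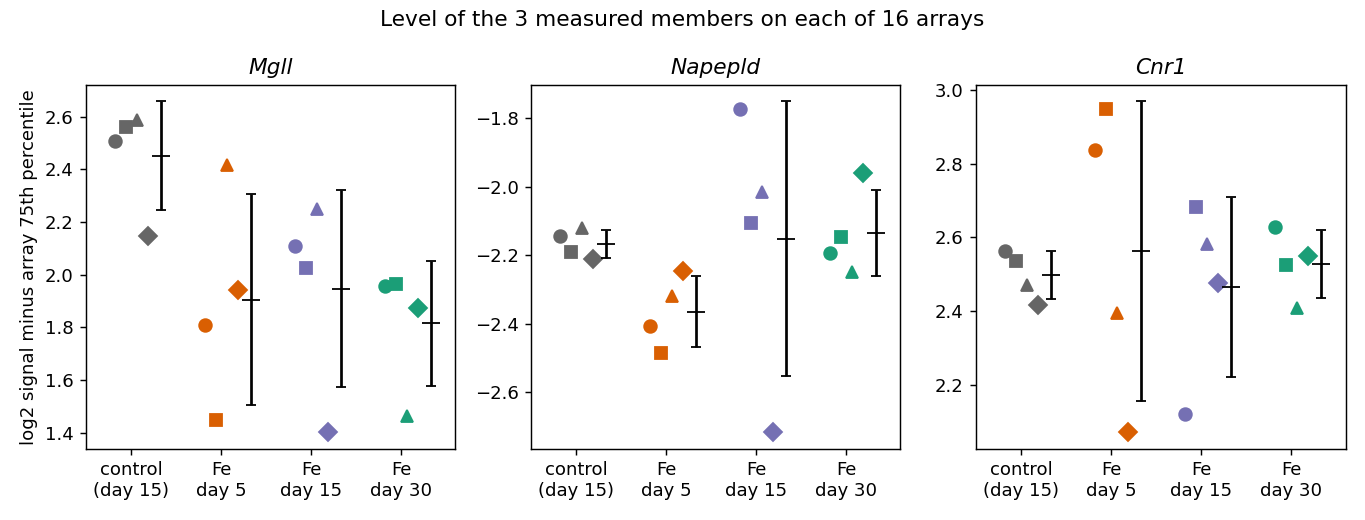
Level of Mgll, Napepld and Cnr1 on each of the 16 arrays (log2 signal minus the array's 75th percentile), by group along the horizontal axis, with the group mean and SD (n = 4) as bars and marker shape giving the replicate number. The 4 Fe day 30 points of Mgll lie below every control point, Napepld in Fe day 5 lies below every control point, and Cnr1 groups overlap throughout.

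The 3 Fe days differed little from one another in Mgll. The log2 difference was 0.04 (95% interval −0.41 to 0.49) between day 15 and day 5, −0.09 (−0.54 to 0.36) between day 30 and day 5, and −0.13 (−0.58 to 0.32) between day 30 and day 15. In these comparisons 0% of features passed the adjusted threshold. In order of the group means, Fe day 30 was lowest, followed by Fe day 5, Fe day 15 and the controls, and the 3 Fe groups did not differ beyond their spread.

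The direction of the Mgll difference did not rest on 1 array. Without the 3 arrays with high choroid plexus and meninges scores it was −0.57, −0.50 and −0.52 on days 5, 15 and 30. When any single array was left out, the difference ranged from −0.72 to −0.39 on day 5 and from −0.74 to −0.52 on day 30. On day 15 it ranged from −0.61 to −0.32, and the value nearest 0 came from leaving out Fe day 15 replicate 4, the lowest Mgll array in the series. The adjusted p in these fits did not fall under 0.05.

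Mgll was also compared within slides, since 6 Fe arrays shared a slide with a control array. It lay below that control in 5 of 6. The difference was −0.57 for the Fe day 5 array, −0.45, −0.56 and 0.10 for the 3 Fe day 15 arrays, and −1.10 and −0.72 for the 2 Fe day 30 arrays. The exception was the pair with control replicate 4. The 6 pairs used 4 control arrays, with control replicates 2 and 3 in 2 pairs each, so they are not separate comparisons. All 4 control arrays lay at position 1 of their slides, all 4 Fe day 15 arrays at position 2, and the Fe day 30 arrays at positions 2 and 4. Position and group cannot be told apart in the day 15 and day 30 comparisons with control. Only Fe day 5 held arrays at positions 1 and 2, with a single array at position 2.

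**Figure D2:**
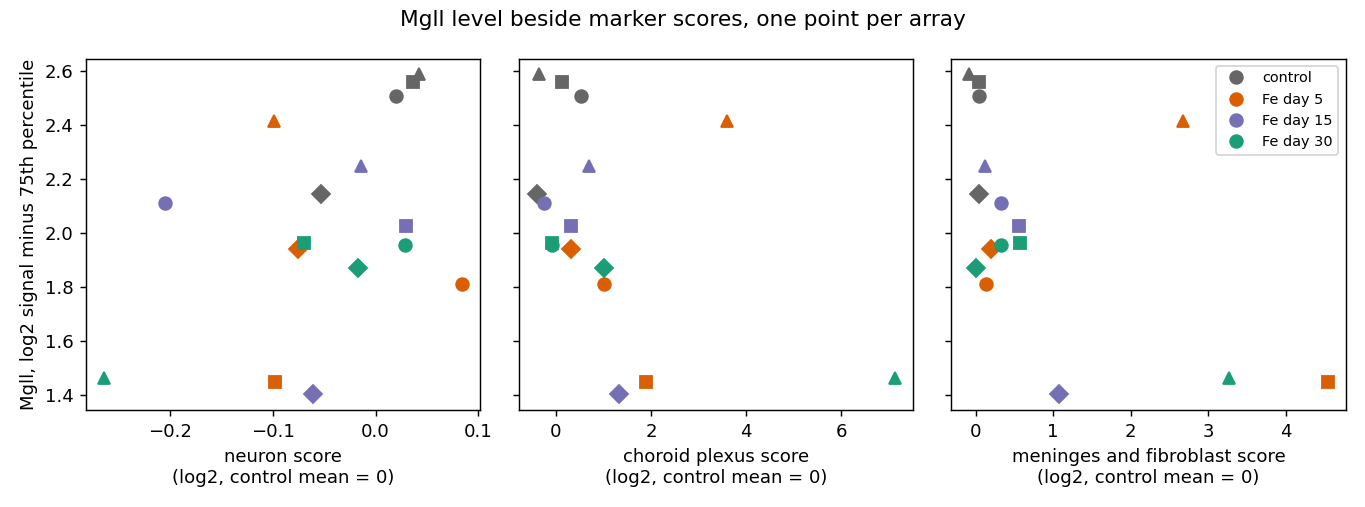
Mgll level (log2 signal minus the array's 75th percentile, vertical axis) against the scores of neuron, choroid plexus, and meninges and fibroblast markers (median log2 difference from the control mean, horizontal axes), 1 point for each of 16 arrays, with colour giving the group and shape the replicate number. Fe day 30 replicate 3 and Fe day 5 replicate 2 are high in choroid plexus and meninges markers and low in Mgll, while Fe day 5 replicate 3 is high in both scores and has the highest Mgll level among Fe arrays.

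Marker levels are given beside Mgll without a test of the relation. The neuron score over 8 markers ran from −0.10 to 0.08 in Fe day 5, from −0.20 to 0.03 in Fe day 15, from −0.26 to 0.03 in Fe day 30 and from −0.05 to 0.04 in the controls. Fe day 30 replicate 3, with the lowest neuron score, also had a low Mgll level of 1.46. Fe day 15 replicate 1 had a neuron score of −0.20 and a Mgll level of 2.11, above the mean of its group. Markers of other cell types were set beside control in the same way. Microglia markers were higher in 8, 9 and 8 of 10 on days 5, 15 and 30. Their score ran from −0.07 to 0.25 in Fe day 5 and −0.20 to 0.93 in Fe day 15. It ran from −0.42 to 0.77 in Fe day 30 and −0.04 to 0.10 in the controls. Of 10 oligodendrocyte markers 9, 8 and 5 were higher on those days, and of 7 astrocyte markers 2, 5 and 3. All 8 measured pericyte and smooth muscle markers were higher on days 5 and 30, with median differences of 0.26 and 0.45, and 6 of 8 on day 15 (median 0.19). Endothelial markers were higher in 7, 4 and 8 of 8 on days 5, 15 and 30 (medians 0.18, −0.01 and 0.29). Blood markers were higher in 5, 6 and 6 of 6, and their score ran from 0.01 to 2.00 in Fe day 5, 0.01 to 1.55 in Fe day 15 and −0.39 to 1.82 in Fe day 30, against −0.26 to 0.15 in the controls. The score of 5 measured markers of CCK interneurons, a cell type rich in CB1, ran from 0.08 to 0.51 in Fe day 15, against −0.08 to 0.03 in the controls. In Fe day 5 it ran from −0.04 to 0.28 and in Fe day 30 from −0.07 to 0.17, so both overlapped the controls. Of these 5 markers, 2, 1 and 2 were lower than control on days 5, 15 and 30. None of these markers passed the adjusted test. The part of these markers in the Mgll values was not tested.

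Napepld, which releases N-acylethanolamines from membrane phospholipids, was measured with a probe printed in 10 spots, whose spread within an array was small (median SD 0.063). Its level was −2.41, −2.49, −2.32 and −2.25 in Fe day 5, −1.77, −2.10, −2.01 and −2.72 in Fe day 15, −2.19, −2.15, −2.25 and −1.96 in Fe day 30, and −2.14, −2.19, −2.12 and −2.21 in the controls. The controls lay within a narrow band, and all 4 Fe day 5 arrays lay below it. The Fe day 15 arrays were the most spread, with replicate 1 above and replicate 4 below every other array of the series.

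The mean log2 difference of Napepld from control on day 5 was −0.20 (SE 0.15, 95% interval −0.52 to 0.12), or 87.2% of the control signal, and the limma p was 0.20, or 0.62 once adjusted. Groups that did not overlap in this direction were seen in 5.09% of all features on day 5. The difference was 0.01 (95% interval −0.30 to 0.33) on day 15 and 0.03 (−0.29 to 0.35) on day 30. With the slide as a term the day 5 difference was 0.02, so its sign depended on that choice. Without the 3 marker-high arrays the differences were −0.16, 0.01 and 0.07 on days 5, 15 and 30. Between days, Napepld was higher by 0.21 on day 15 and by 0.23 on day 30 than on day 5, with adjusted p-values of 0.81 and above 0.99 in limma. Group means were −2.36 ± 0.10 in Fe day 5, −2.15 ± 0.40 in Fe day 15, −2.14 ± 0.13 in Fe day 30 and −2.17 ± 0.042 in the controls (SD, n = 4 each).

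**Figure D3:**
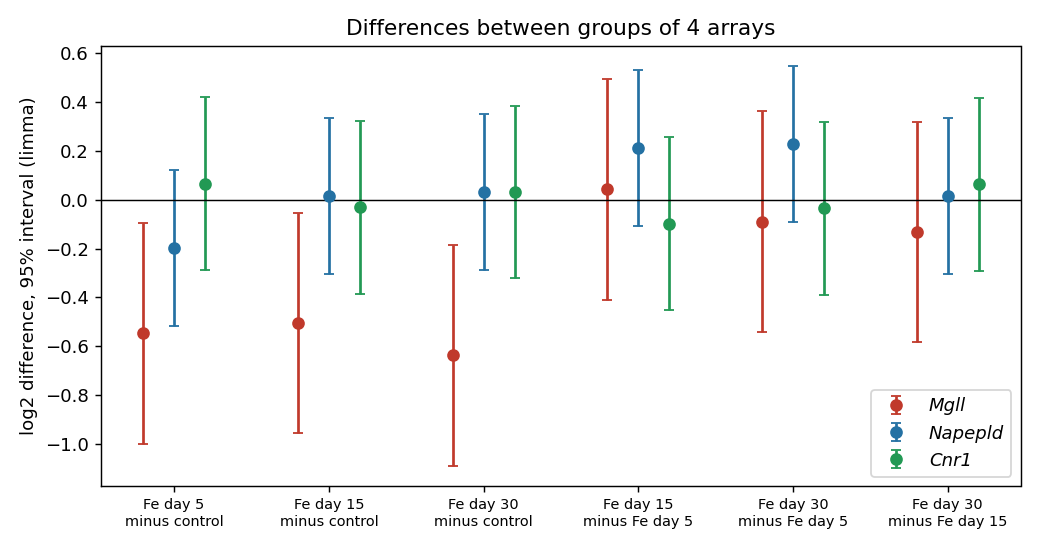
Log2 differences between groups of 4 arrays for Mgll, Napepld and Cnr1, with 95% intervals from limma, for the 3 Fe days against control and for the Fe days against one another. The Mgll intervals against control lie below 0 before adjustment, and the other intervals, including those between Fe days, include 0.

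Cnr1, the gene of the CB1 receptor, had group means that lay within 0.1 of one another. Its level was 2.84, 2.95, 2.39 and 2.07 in Fe day 5, 2.12, 2.68, 2.58 and 2.48 in Fe day 15, 2.63, 2.52, 2.41 and 2.55 in Fe day 30, and 2.56, 2.53, 2.47 and 2.42 in the controls. The groups overlapped in each comparison. The spread within groups was uneven, and its difference between groups was not tested. The SD was 0.41 in Fe day 5 and 0.24 in Fe day 15, against 0.092 in Fe day 30 and 0.065 in the controls. The Fe day 5 group held both the highest and the lowest array of the series.

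The log2 difference of Cnr1 from control was 0.07 (95% interval −0.29 to 0.42) on day 5, −0.03 (−0.38 to 0.32) on day 15 and 0.03 (−0.32 to 0.38) on day 30. The limma p-values were 0.69, 0.85 and 0.85. Without the 3 marker-high arrays the differences were −0.04, −0.03 and 0.07, so the sign on day 5 turned. These intervals leave room for differences in either direction, such as from 76.6% to 125% of the control signal on day 15. Within Fe day 5, the 3 arrays at position 1 had Cnr1 levels of 2.84, 2.95 and 2.39, and the array at position 2 had 2.07. Within slides, Cnr1 was lower in 3 of the 6 Fe arrays than in the control beside it.

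None of the 3 pairs of members was correlated past the adjusted threshold across the 16 arrays. For Mgll with Napepld, Pearson's r was 0.51 (permutation p = 0.045, adjusted p = 0.14 over 3 pairs) and Spearman's rho was 0.52 (adjusted permutation p = 0.12). Without the 2 arrays farthest from the median of Mgll, r was 0.33, so the relation rests in part on Fe day 15 replicate 4 and control replicate 3. As deviations from the group means r was 0.68. For Mgll with Cnr1, r was −0.22 and rho −0.19 (permutation p = 0.41 and 0.47), and r was −0.27 without the 2 farthest arrays. For Cnr1 with Napepld, r was −0.36 and rho −0.026 (permutation p = 0.17 and 0.93), and r was −0.34 without the 2 farthest arrays.

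The genes with the profile most like each member were looked up among 9587 named genes, by Pearson's r over the 16 arrays, as a description. For Mgll these were Cacna1a, the pore-forming subunit of the P/Q-type calcium channel (r = 0.94), Adora1, the adenosine A1 receptor (r = 0.92), and Trpc5, a cation channel (r = 0.92). They kept r of 0.89 to 0.92 as deviations from group means. Mgll had 280 named genes at r above 0.8, whereas Cnr1 had 33 and Napepld 31. Nearest to Cnr1 were Itga4, an integrin subunit (r = 0.93), and the diacylglycerol kinases Dgkb (r = 0.93) and Dgkg (r = 0.91). Nearest to Napepld were Nr1h2, a liver X receptor (r = 0.92), the kinase Nek7 (r = 0.89), and Rnf4, a ubiquitin ligase (r = 0.89). Without the 2 arrays farthest from the median of Napepld, r was 0.84, 0.72 and 0.81 for these genes. The same step for each other member gave 0.89 to 0.92 for the Mgll genes and 0.87 to 0.89 for the Cnr1 genes. The arrays share their scaling, and the names are those of the highest values out of all genes searched.

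The rest of the pathway was described with 60 further genes in 7 roles. Of these, 56 had a probe and 51 passed the filter on low signal. Cnr2, the CB2 receptor, was well above background on 1 array, and Gpr119 and Alox12 on none. No gene of the 51 passed the adjusted test on any day. On day 5, 23 had a higher and 28 a lower mean in Fe, with 3 higher and 8 lower at an unadjusted p under 0.05, against 4.06% and 6.28% of all features. On day 15, 21 were higher and 30 lower, with 3 and 6 at that level, against 5.17% and 6.33% of all features. On day 30, 23 were higher and 28 lower, with 0 and 5 at that level, against 3.12% and 4.66% of all features. These counts also moved with single arrays. The 8 lower on day 5 became 1 without control replicate 2 or Fe day 5 replicate 2 and 11 without Fe day 5 replicate 3 or Fe day 30 replicate 3, and the 5 lower on day 30 became 1 without Fe day 30 replicate 2 or 3 and 8 without replicate 4. The day 15 count of lower genes ranged from 4 to 9, with 9 without Fe day 15 replicate 3. The median difference of the 51 genes was −0.06, −0.03 and −0.02 on days 5, 15 and 30, against −0.02, 0.00 and −0.01 over all features. The 3 comparisons share the 4 control arrays.

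Most roles were centred near 0. For the 7 genes of 2-arachidonoylglycerol synthesis other than Dagla, the median difference was 0.00, −0.05 and −0.02 on days 5, 15 and 30. For the 7 other genes of N-acylethanolamine synthesis it was 0.06, −0.02 and 0.07. The 7 measured breakdown enzymes had medians of −0.16, −0.07 and −0.07, and the 6 other receptors −0.06, 0.01 and 0.20. The 9 receptor partners, which are G protein subunits, arrestins and CB1-binding proteins, had medians of −0.05, 0.06 and −0.03. The 6 lipid carriers had 0.04, 0.04 and 0.00.

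**Figure D4:**
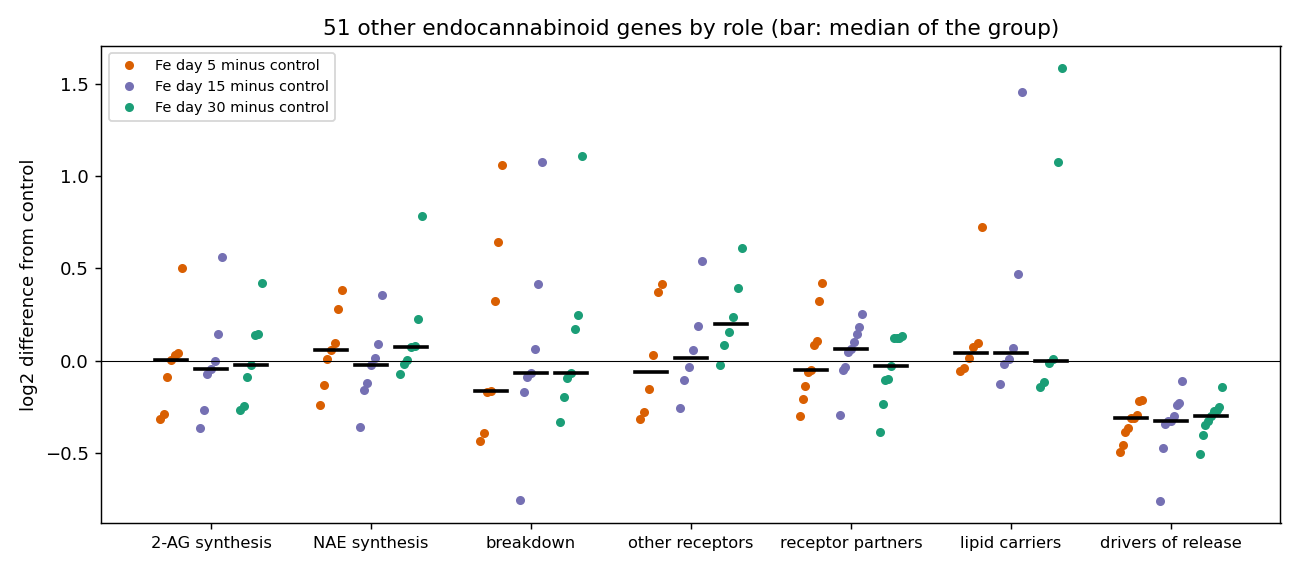
Log2 difference from control of 51 other endocannabinoid genes on Fe days 5, 15 and 30, grouped by role, with 1 point for each gene and a bar at the median of the role. The 9 drivers of release lie below 0 on each day, whereas the other roles have points on both sides of 0 on each day.

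The drivers of release were the remaining role. These 9 genes encode receptors that trigger endocannabinoid synthesis, among them Grm5, Chrm1 and Chrm3, the G protein alpha subunits they act through (Gnaq and Gna11), and the scaffold proteins Homer1, Homer2 and Homer3. All 9 had a lower mean in Fe than in control on each of the 3 days, with median differences of −0.31, −0.33 and −0.30. Over all features, 14392, 13214 and 14197 of 26565 had a lower mean on those days. None of the 9 passed the adjusted test. At an unadjusted p under 0.05, 3, 3 and 2 of them were lower, against 6.28%, 6.33% and 4.66% of all features. These counts depended on single arrays. On day 5 the count was 0 without control replicate 2, control replicate 3 or Fe day 5 replicate 2, and 6 without Fe day 5 replicate 3. On day 30 it was 0 without control replicate 1 or Fe day 30 replicate 2 or 3, and 4 without Fe day 30 replicate 4 or Fe day 15 replicate 4. The day 15 count ranged from 2 to 5, with 5 without Fe day 15 replicate 3, and the day 15 median was −0.18 without Fe day 15 replicate 4. Without the 3 marker-high arrays all 9 remained lower on each day, with medians of −0.33, −0.33 and −0.21, and 2, 5 and 0 of them had an unadjusted p under 0.05. The number lower was 8 of 9 on day 15 without control replicate 2. With position on the slide as a term it was 8 on day 15 and 7 on day 30.

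Among all 51 genes, the 3 with the smallest p-values on day 5 were Ppard, Ddhd1 and Chrm3. The fatty acid-sensing nuclear receptor Ppard was at −4.59, −4.76, −4.57 and −4.80 in Fe day 5, and at −4.26, −4.52, −4.44 and −4.38 in the controls. All Fe day 5 values lay below the controls, with a difference of −0.28 (adjusted p = 0.47 in limma, unadjusted 0.015). Ddhd1, a phospholipase of phosphatidic acid metabolism, differed by −0.32 (adjusted p = 0.47 in limma, unadjusted 0.018), with overlapping groups. The muscarinic receptor Chrm3 was at 4.34, 4.12, 4.63 and 4.51 in Fe day 5, against 4.78, 4.92, 5.04 and 4.69 in the controls. Its groups did not overlap either, and the difference was −0.46 (adjusted p = 0.47 in limma, unadjusted 0.028). Fe values wholly below the controls, as for Ppard and Chrm3, were seen in 5.09% of all features on day 5.

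On day 15 they were Homer3, Gnaq and Ddhd1, and all 3 had Fe values wholly below the controls, as did 5.73% of all features. Homer3, a scaffold protein of the synapse, was at −1.44, −0.95, −0.83 and −2.07 in Fe day 15, against −0.50, −0.56, −0.46 and −0.72 in the controls. The difference was −0.76 (adjusted p = 0.28 in limma, unadjusted 0.0053), and replicate 4 was the lowest array. For Gnaq, the alpha subunit that activates phospholipase C, the levels were −2.47, −2.24, −2.35 and −2.68 in Fe day 15, against −1.95, −2.03, −1.78 and −2.08 in the controls. This was a difference of −0.48 (adjusted p = 0.31 in limma, unadjusted 0.0074). Ddhd1 was at 0.57, 0.49, 0.65 and 0.27 in Fe day 15, against 0.72, 1.04, 0.77 and 0.91 in the controls, a difference of −0.37 (adjusted p = 0.31 in limma, unadjusted 0.0078).

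On day 30 they were Gnao1, Abhd12 and Gnaq. Gnao1, the inhibitory G protein alpha subunit through which CB1 acts at synapses, was at 3.21, 3.09, 2.68 and 2.91 in Fe day 30, against 3.37, 3.36, 3.41 and 3.31 in the controls. Its groups did not overlap, and the difference was −0.39 (adjusted p = 0.50 in limma, unadjusted 0.0029). Over all features, 3.63% had Fe day 30 values wholly below the controls. Abhd12, a hydrolase that takes a minor share of 2-arachidonoylglycerol breakdown, was at 4.02, 3.89, 3.8 and 4.09 in Fe day 30, against 4.16, 4.13, 4.21 and 4.10 in the controls, with a difference of −0.20 (adjusted p = 0.63 in limma, unadjusted 0.022). Gnaq differed by −0.35 (adjusted p = 0.63 in limma, unadjusted 0.038) with overlapping groups, and by −0.18 without Fe day 30 replicate 3.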

How the data were processed

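RNA of 16 hippocampi was hybridised to 16 arrays. Images were read with Agilent Feature Extraction 9.5, per the submitters' processing notes. The deposited files hold, per the file headers, a background-subtracted processed signal per spot, an intensity on a linear scale, and marks for outlier, saturated and above-background spots. A series-wide table, also deposited, repeated these intensity values in 100% of its entries, to a relative tolerance of 1e-06.

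Control spots and outlier spots were left out, spots of a probe were averaged, and log2 intensity minus each array's 75th percentile was computed from the deposited values. A probe was kept when each array of some group showed it well above background (30548 of 41012). Names came from RefSeq accessions through a GRCr8 gene table, used for names alone, which matched 15175 of 19715 probes with such an accession. The probe of highest mean signal stood for a gene, which gave 26565 features.

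A one-way model of all 16 arrays was fitted with limma 3.58.1 in R 4.3.3, with 12 residual degrees of freedom, for 6 comparisons and an F-test. Tests were two-sided, with Benjamini-Hochberg adjustment over all features and a threshold of 0.05. The number of arrays limits the precision. P-values measure the spread between these rats. Correlations of members used 100000 permutations over 3 pairs, since 3 members were measured. Marker scores, likeness and promoter motifs (Python 3.11.15) are descriptions. The members, lists and tests were chosen with earlier results of these data known. The genes named beside the members were, for each Fe day, the 3 of lowest unadjusted p among the other endocannabinoid genes, and for each member the 3 named genes of highest r. Single values of some listed genes are not reported here. The fits were tested on simulated data. Deviations of same-numbered arrays of different groups had correlations from −0.41 to 0.39, with medians per number from −0.11 to 0.01. Numbers were not taken as pairs in the reported fit.

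Alternatives covered background correction (normexp, offset 50, on the median spot intensity that the deposited files give), normalization, filters, probe choice, slide, replicate number, array weights, groups in the fit, single arrays left out, the 3 marker-high arrays left out, and position on the slide, which was added after the file headers were read.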

Additional observations from a re-analysis of the deposited data

Results flagged for a closer look

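Of 40 sets of 4 arrays examined, made up of 10 genes in 4 groups, 1 held an array that stood apart by Dixon's test. Gnaq, the G protein alpha subunit downstream of the receptors that drive endocannabinoid release, was at −2.07 in Fe day 5 replicate 3, whereas the other 3 Fe day 5 arrays lay between −2.36 and −2.32. The gap was 0.84 of the range of the group. Chance flags about 1 in 20 groups. The same array was among those high in choroid plexus and meninges markers and had the highest Mgll level of the Fe arrays, and the part of these markers in the value was not tested.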

How the results depend on the processing

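No member was called under any of the 30 alternatives. Mgll was lower than control on each day under all 30, from −0.72 to −0.39 on day 5, −0.61 to −0.32 on day 15 and −0.74 to −0.52 on day 30. Several differences that lay close to 0, mostly of Cnr1 and Napepld but also of Mgll between Fe days, changed sign under some settings, and the cause was not tested. With normexp they were 0.00611 (Cnr1, day 15 against control), −1.10e-05 (Napepld, day 30 against control), −0.00605 (Mgll, day 15 against day 5) and −0.0136 (Napepld, day 30 against day 15). Quantile normalization gave Napepld −0.00360 for day 30 against day 15 and 8 genes called on day 30, where 2 were called in the reported fit. Median scaling gave Cnr1 −0.00491 and Napepld −0.00571 on day 30 against control, Napepld −0.00652 for day 30 against day 15, and 9 genes called on day 30. Without a filter 1 gene was called on day 5 and 1 on day 15. Fits of only the compared groups called 2 on day 15, 0 on day 30 and 1 between day 30 and day 5. Array weights gave Cnr1 0.0111 on day 15, Mgll 0.00781 for day 30 against day 5 and Napepld −0.0415 for day 30 against day 15, with 184 genes called on day 15, 25 on day 30 and 2 between day 15 and day 5.

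With the slide as a term, Cnr1 was −0.0638 on day 5 and −0.0909 on day 30 against control, Napepld was 0.0211 on day 5 against control and −0.00963 for day 30 against day 15, and 0 genes were called on day 30. The position term tests little, since its step from position 1 to the others rests on 1 array, Fe day 5 replicate 4. With it, Cnr1 was 0.62 on day 15 against control, 0.39 for day 15 against day 5 and 0.50 for day 30 against day 5. Napepld was −0.14 and −0.16 on days 15 and 30 against control and −0.0170 for day 30 against day 15, Mgll was 0.0194 for day 30 against day 5 and 0.0147 for day 30 against day 15, and Gnao1 was 0.0423 on day 30. Genes called were then 15 and 17 on days 15 and 30 against control, 22 for day 15 against day 5, 26 for day 30 against day 5 and 10 for day 30 against day 15. Without the 3 marker-high arrays Cnr1 was −0.0424 on day 5 against control, 0.0109 for day 15 against day 5 and 0.11 for day 30 against day 5, Mgll was 0.0552 for day 30 against day 5, and 4 genes were called on day 15 and 0 on day 30.

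In the pairing check 8 of 16 arrays correlated best with an array of their own number, and how many would do so by chance was not tested. The replicate number as a block left the Mgll differences at −0.55, −0.50 and −0.64, with adjusted p-values of 0.54, 0.44 and 0.68 in limma. This block gave 1 gene called on day 15 and changed no call of a member.

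Leaving out 1 array at a time gave Cnr1 −0.0625 to 0.230, −0.104 to 0.0830 and −0.00290 to 0.0708 on days 5, 15 and 30 against control. Napepld ran from −0.112 to 0.202 on day 15 and −0.0291 to 0.0674 on day 30. For day 15 against day 5, Cnr1 ran from −0.261 to 0.0310 and Mgll from −0.110 to 0.224. For day 30 against day 5, Cnr1 ran from −0.199 to 0.0933 and Mgll from −0.242 to 0.0809. For day 30 against day 15, Cnr1 ran from −0.0521 to 0.135 and Napepld from −0.172 to 0.142. Genes called ranged from 0 to 1 on day 5, 0 to 10 on day 15, 0 to 9 on day 30 and 0 to 13 between day 15 and day 5. The count of 9 came from leaving out replicate 4 of Fe day 5, and those of 10 and 13 from leaving out replicate 4 of Fe day 15. No F-test or member correlation was run with array weights, slide, replicate or position terms, or in fits of 2 groups. At the median standard error of 0.13, differences of that size or smaller are not resolved by 4 arrays a group. Larger ones also did not pass the adjusted test, such as that of −0.64 for Mgll on day 30. The members had larger standard errors, at 0.21 for Mgll, 0.16 for Cnr1 and 0.15 for Napepld.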

Other observations

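Some genes of the pathway had levels that split the arrays without following the groups. The genes given here had a gap of more than 1.5 on the log2 scale between neighbouring arrays, a width chosen after the values were seen. Ephx2, the soluble epoxide hydrolase, lay between −2.37 and −1.07 on 11 arrays and between −5.33 and −4.68 on 5, and the higher set held 2 Fe day 5, 3 Fe day 15, 4 Fe day 30 and 2 control arrays. Alb, the gene of serum albumin, had 12 arrays between −1.46 and −0.05 and 4 between −3.85 and −3.08, and both sets held control arrays. Trpv4, a cation channel, was at −1.55 in Fe day 30 replicate 3 and at −3.07 or lower on the other 15 arrays. The next highest were Fe day 5 replicates 2 and 3, at −3.07 and −3.19. The highest Trpv4 levels were thus those of the 3 marker-high arrays. The cause of these splits was not tested.

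Other pathway genes with larger differences, named after their values were seen, did not pass the adjusted test. Alox15, a lipoxygenase that oxidises arachidonic acid, was at −5.34, −4.69, −4.58 and −4.27 in Fe day 15, above the controls at −5.80, −5.93, −5.67 and −5.80 (difference 1.08, adjusted p = 0.39 in limma, unadjusted 0.031). In Fe day 5 it was at −5.46, −4.34, −5.79 and −3.36, which overlapped the controls and held its highest level in the series. On day 30 its difference was 0.17, with overlapping groups. Alox15 was well above background on 13 of the 16 arrays. Hspa1a, a heat shock protein listed with the lipid carriers and closely similar to Hspa1b, was at 1.64, 2.55, 2.09 and −0.40 in Fe day 15, against −0.01, −0.09, 0.18 and −0.04 in the controls (difference 1.46, adjusted p = 0.36 in limma, unadjusted 0.017). Plcb4, a phospholipase C, was above every control array in all Fe day 5 and Fe day 15 arrays, with differences of 0.50 and 0.56 and limma p-values of 0.10 and 0.071. Its level was −0.23, −1.82, −1.77 and −1.63 in Fe day 15, against −1.85, −2.05, −1.92 and −1.87 in the controls. Much of the day 15 difference thus came from replicate 1. Of all 26565 features, 731 on day 5 and 1091 on day 15 had Fe values wholly above the controls.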
